A study of Mus musculus with 6 samples.

Results

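The collagen chains described here are all protein-coding mouse genes with a symbol of the form Col, number, a, number, with Col17a1 left out. The rule gave 43 of the 55401 gene IDs of the deposited tables, of which 11 encode fibrillar chains, 8 basement membrane chains and 24 chains of other types. The basement membrane chains are the 6 type IV chains and the 2 multiplexins, Col15a1 and Col18a1. Collagens are the main structural proteins of the extracellular matrix. Each molecule is a triple helix whose chains carry glycine as the first residue of each Gly-X-Y triplet. In the liver the fibrillar types I, III and V are known chiefly as products of portal fibroblasts and activated stellate cells. Type IV networks form the basement membranes under bile ducts and vessels, and the other types link, anchor or decorate these structures.

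Cholangiocytes, which line the bile ducts, were isolated from WT and PLD mice (wild type; polycystic liver disease), and their polyadenylated RNA was sequenced. Both groups were sampled 3 months after tamoxifen, with 3 libraries each. Livers were digested with collagenases and hyaluronidase, and cells were collected on magnetic beads with an antibody to the epithelial protein EpCAM. The labels name neither the gene altered in the PLD mice nor the Cre line, nor the age and sex of the mice. Nothing in them ties the libraries of a group to different mice. A p-value then reflects only the variation among these libraries, which may be technical.

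The libraries held 15768561 to 16710548 counted reads, and collagen chains took 1.01% to 1.87% of them in WT and 0.145% to 0.58% in PLD. Markers of several cell types moved with the groups, where 28.4% of all genes tested fell and 27% rose. Of the 16 cholangiocyte markers 14 rose in PLD and 1, Cftr, fell, with summed levels of 9866 to 14250.5 CPM in WT and 33289.5 to 45770.1 CPM in PLD, where CPM are counts scaled to a common library total after TMM normalisation. All 22 endothelial markers fell (9393 to 11926 CPM in WT and 708 to 1252 CPM in PLD, median log2 fold change -3.34). Among the 20 fibroblast and stellate markers 16 fell and Thy1 rose (5731 to 7584 CPM in WT and 1938 to 2749 CPM in PLD, median -1.61), and all 9 smooth muscle markers fell (2884 to 3009 CPM in WT and 197 to 343 CPM in PLD, median -3.70). Of 9 Schwann cell markers 7 fell and 2, S100b and Mal, rose (median -3.27), and of the 6 tested mesothelial markers 4 fell and Msln rose (-2.14). Of the 10 hepatocyte markers 4 fell and 2 rose (-0.65), and of the 10 macrophage markers 2 rose and 8 did not pass (-0.14). No list holds a collagen gene, and Des and Ngfr each stand in 2 lists. Apart from Krt14 and Muc16 of the mesothelial list, every marker had reads in all 6 libraries. The part of these cell types in the changes described below was not tested, and in bulk RNA fewer cells of a type and less RNA per cell cannot be told apart.

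The chains differ in how long the glycine repeat runs without a break. In the longest GENCODE vM21 coding sequence of each of the 43 genes, the longest uninterrupted series of GGN codons at the first position of each triplet spanned 216 to 344 triplets in the fibrillar chains and 39 to 66 in type IV. Fibrillar chains had 2 to 5 runs of at least 3 triplets and type IV chains 23 to 27. The first 63 bases of the longest run are shown 5′ to 3′ on the coding strand for chains on which the results turn. They come from the GENCODE vM21 transcripts (GRCm38). Capitals mark the glycine codon at the first position of each triplet, and a glycine codon elsewhere is in lower case. The chains shown are the most abundant fibrillar chains, the type IV chains that moved in opposite directions, and the related Col12a1 and Col14a1, whose fold changes stood far apart.
Col1a1: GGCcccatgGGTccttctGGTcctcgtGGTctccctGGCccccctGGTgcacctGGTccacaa
Col3a1: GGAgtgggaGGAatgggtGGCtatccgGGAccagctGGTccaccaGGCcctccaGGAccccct
Col4a1: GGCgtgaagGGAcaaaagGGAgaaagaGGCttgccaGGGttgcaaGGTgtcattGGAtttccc
Col4a2: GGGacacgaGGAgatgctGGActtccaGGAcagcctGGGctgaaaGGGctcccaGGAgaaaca
Col4a3: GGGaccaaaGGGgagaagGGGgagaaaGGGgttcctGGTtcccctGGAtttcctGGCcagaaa
Col4a4: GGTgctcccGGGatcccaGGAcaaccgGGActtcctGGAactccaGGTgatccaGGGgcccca
Col12a1: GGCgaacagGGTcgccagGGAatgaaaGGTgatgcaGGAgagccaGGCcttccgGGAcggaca
Col14a1: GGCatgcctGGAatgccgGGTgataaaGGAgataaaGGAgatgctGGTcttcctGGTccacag
The repeat spanned 338 triplets in Col1a1 and 344 in Col3a1. It spanned 40 in Col4a1 and 39 in Col4a3, and 32 in each of Col12a1 and Col14a1.

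Collagen RNA was lower in PLD for most chains. Of the 43 genes, 33 passed the filter on low counts and were tested, and 27 of these fell, 2 rose and 4 did not pass at an adjusted p of 0.05 (edgeR). The 27 are 81.8% of the tested chains, where 28.4% of all 15334 genes tested fell. The 2 that rose, Col4a3 and Col4a4, are 6.06%, where 27% of all genes rose. The median log2 fold change was -1.72 over the tested chains and 0.01 over all genes. All PLD libraries lay below all WT libraries for 29 of the 33 chains, or 87.9%, against 33.2% of all genes. Of the tested chains 13, or 39.4%, were called lower with an estimated fall of at least 4-fold, against 8.24% of all genes. The size of the fall was not itself tested against 4-fold. The 33 tested chains passed a filter on low reads that a chain could meet through WT alone, so these counts do not describe all 43. PLD replicate 1 had the lowest level of the PLD libraries for 29 of the 33 chains. The plot of every tested chain by library shows this order.

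**Figure D1:**
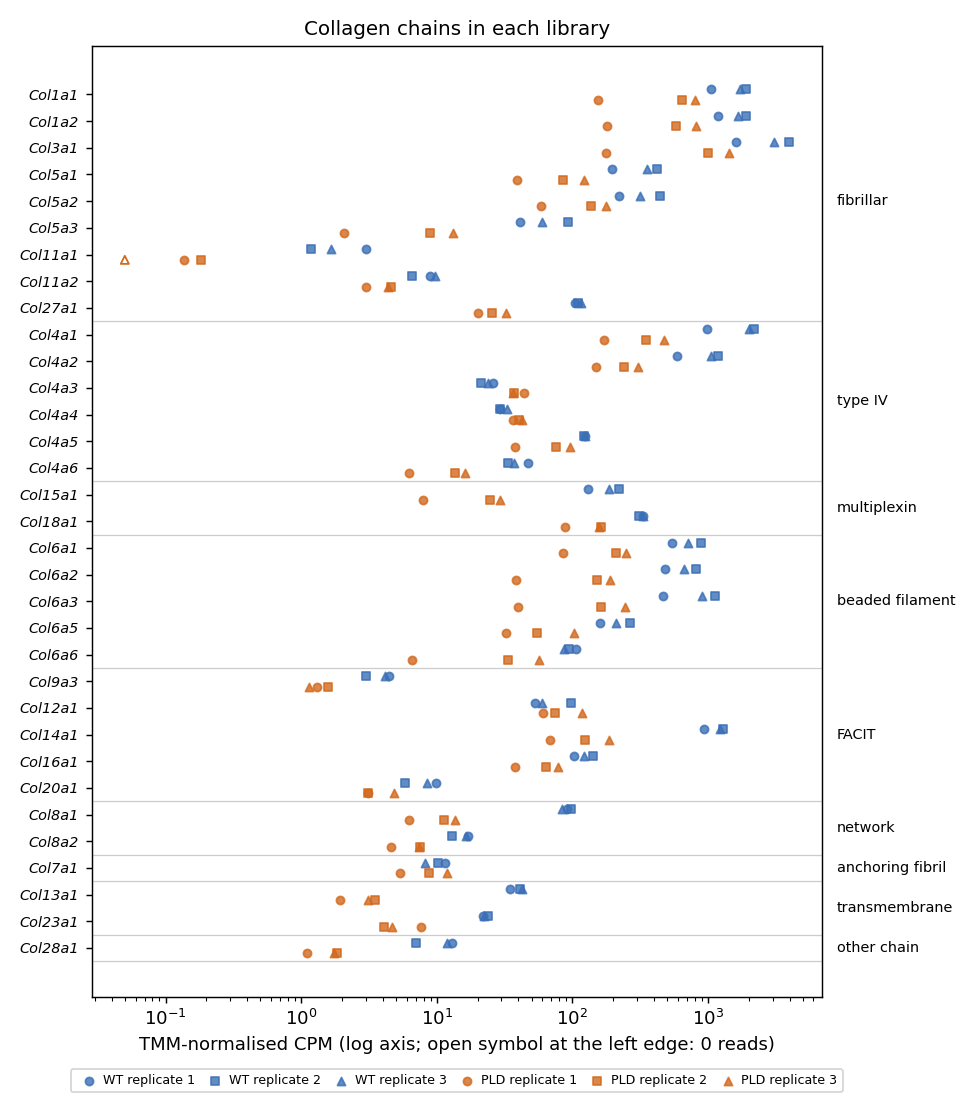
TMM-normalised CPM (log axis) of the 33 tested collagen chains, 1 row per chain and 1 symbol per library, grouped by type; an open symbol drawn at the left marks 0 reads. PLD symbols lie to the left of all WT symbols for 29 chains and to the right for Col4a3 and Col4a4, and PLD replicate 1 (circles) is mostly the lowest.

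Among the fibrillar chains 8 of 9 tested fell in PLD (28.4% of all genes) and 0 rose (27% of all genes). Their median log2 fold change was -1.72. At an unadjusted p under 0.05 in edgeR, and in DESeq2 or limma-voom after adjustment, the number that rose was also 0. Type I collagen, the main fibre of stroma and scar, is built from Col1a1 and Col1a2. Col1a1 (ENSMUSG00000001506.10, mm10 chromosome 11, 94936224 to 94953042) had 1045, 1917 and 1712 CPM in WT and 154, 645 and 806 CPM in PLD. The groups did not overlap, and PLD replicate 1 stood far below the other PLD libraries. Its log2 fold change was -1.54 ± 0.55 SE (edgeR's adjusted p = 0.0435). Col1a2 followed closely, with 1182, 1911 and 1677 CPM in WT and 179.7, 583 and 812 CPM in PLD and a log2 fold change of -1.60 ± 0.49 (edgeR's adjusted p = 0.0253). Both calls were lost without WT replicate 2 (0.111 and 0.0702), WT replicate 3 (0.106 and 0.0671) or PLD replicate 2 (0.0873 and 0.0685). Without any one of these libraries the fibrillar chains that fell numbered 5 rather than 8, with Col5a2 also lost. For Col1a1 the call was also lost in DESeq2 (adjusted p = 0.0606) and after a length correction (0.0593).

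Col3a1, the single chain of type III collagen in vessel walls and portal stroma, had the most reads of all collagens in every library but PLD replicate 1. There Col1a2 had 2609 reads and Col3a1 2570. Col3a1 measured 1609.7, 3942 and 3063 CPM in WT and 177, 1009 and 1427 CPM in PLD. All PLD values lay below the WT values, yet the spread was wide, with PLD replicates 2 and 3 on average 6.88 times PLD replicate 1. The log2 fold change of -1.72 ± 0.68 did not pass (edgeR's adjusted p = 0.0625). It passed without PLD replicate 1, where the fold change was smaller at -1.23 (adjusted p = 0.0273). It also passed without WT replicate 1 (-2.01, adjusted p = 0.0485) and without PLD replicate 3 (-2.26, adjusted p = 0.048), and in limma-voom (adjusted p = 0.0487) and with no filter on low counts (0.0168).

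Type V chains are built into type I fibrils and limit their diameter. Col5a1 had 195, 418 and 353 CPM in WT and 39.3, 85.3 and 121 CPM in PLD, a log2 fold change of -1.97 ± 0.43 (edgeR's adjusted p = 0.00626). For Col5a2 the values were 222, 441 and 317 CPM in WT and 58.8, 137 and 178 CPM in PLD, a log2 fold change of -1.39 ± 0.41 (edgeR's adjusted p = 0.0212). The Col5a2 call was lost without WT replicate 2 (0.0699), WT replicate 3 (0.0536) or PLD replicate 2 (0.0589). The least abundant type V chain, Col5a3, had 41.1, 92.5 and 59.9 CPM in WT and 2.07, 8.91 and 13.1 CPM in PLD. It fell by 3.00 ± 0.57 on the log2 scale (edgeR's adjusted p = 0.00355). Groups did not overlap for any of these chains, and each was lowest in PLD replicate 1.

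The remaining fibrillar chains are known mainly from cartilage. Col27a1 was the steadiest of them, with 105, 109.6 and 117 CPM in WT and 20.1, 25.6 and 32.4 CPM in PLD. It fell by 2.09 ± 0.17 on the log2 scale (edgeR's adjusted p = 9.87e-05), and its highest PLD library was far under its lowest WT library. Col11a2 fell less, from 8.85, 6.60 and 9.64 CPM in WT to 3.03, 4.57 and 4.38 CPM in PLD (log2 fold change -1.06 ± 0.24, adjusted p = 0.00734). Col11a1 was near the limit of detection in PLD, with 51, 20 and 27 reads in the WT libraries and 2, 3 and 0 in PLD (log2 fold change -4.12 ± 0.70, adjusted p = 0.00214). In the fibrillar group as a whole the summed level was 4412 to 8840.3 CPM in WT and 634 to 3394 CPM in PLD. Fibroblast and stellate markers summed to 5731 to 7584 CPM in WT and 1938 to 2749 CPM in PLD in the same libraries, and were lowest in the same PLD library, replicate 1. Endothelial, smooth muscle, hepatocyte and macrophage sums were also lowest there among the PLD libraries. Cholangiocyte, mesothelial and Schwann cell sums were highest there. The mesothelial sum in PLD replicate 1 was almost all Msln (1156 of 1166 CPM). The Schwann cell sum there was mostly Mal (796 of 833 CPM). Both genes rose in PLD while most of their lists fell, so these sums do not describe the rest of either list. The source of the fibrillar chains was not tested.

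**Figure D2:**
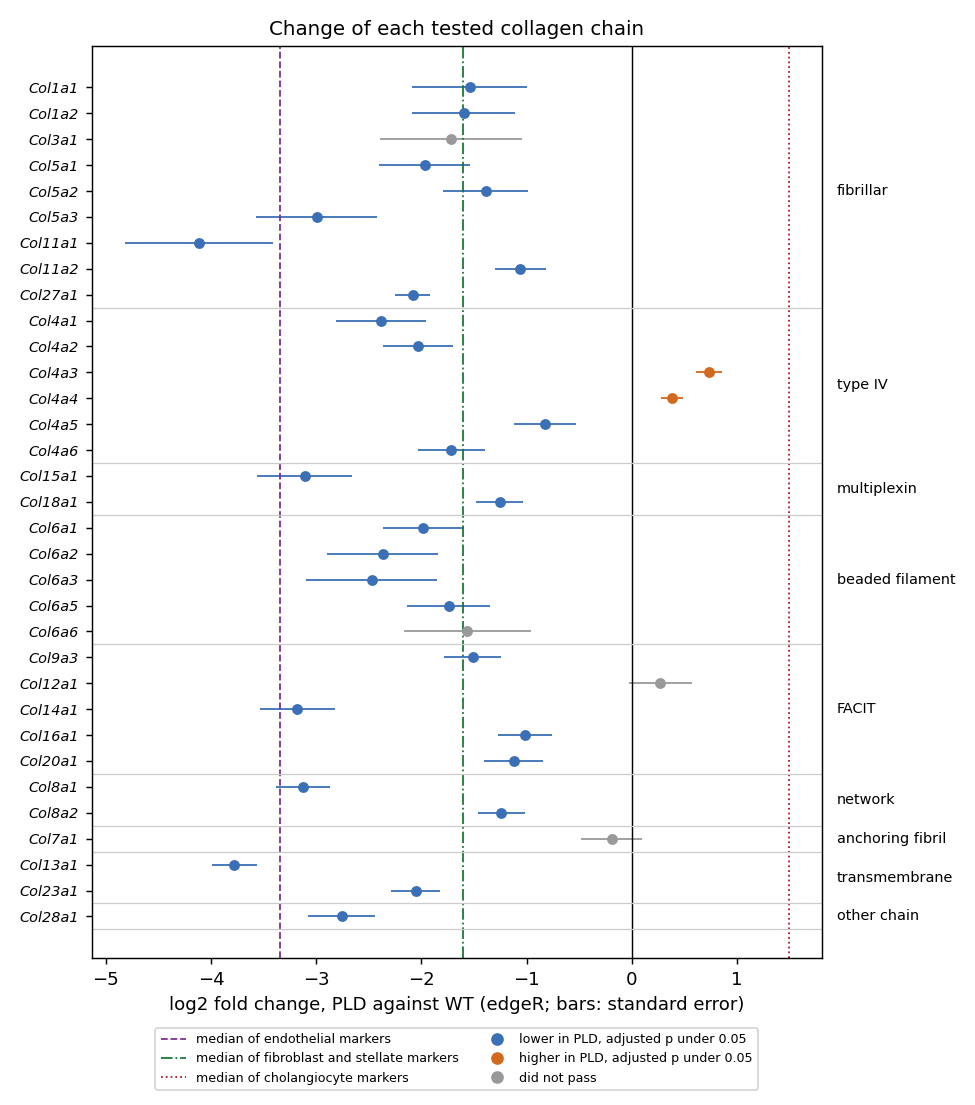
Log2 fold change, PLD against WT, of the 33 tested collagen chains (points; bars are standard errors from edgeR), with the medians of endothelial (-3.34), fibroblast and stellate (-1.61) and cholangiocyte markers (1.49) as vertical lines. Col4a3 and Col4a4 are the 2 chains called higher, and Col3a1, Col6a6, Col12a1 and Col7a1 did not pass.

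Type IV collagen, the sheet-forming collagen of basement membranes, split into chains that fell and chains that rose. Its 6 genes lie in head-to-head pairs. Each pair encodes chains of the same network or of related networks: Col4a1 with Col4a2 in nearly all basement membranes, Col4a3 with Col4a4 in the network that also takes Col4a5, and Col4a5 with Col4a6. Partners moved in the same direction in every pair, and whether their starts bear on this was not tested. The bases where Col4a1 and Col4a2 start, and those between Col4a4 and Col4a3, are shown on the plus strand. The annotated starts of Col4a1 and Col4a2 overlap by 22 bases, mm10 chr8:11312805-11312826, with the one match to GGGCGG in capitals. Between the starts of Col4a4 and Col4a3 lie 71 bases, mm10 chr1:82586850-82586920, with no match to GGGCGG or CCAAT on either strand. Both were read from the RefSeq promoter windows (GRCm38.p6), which hold 250 bases before each start and a short stretch after it.
Col4a1 and Col4a2 overlap: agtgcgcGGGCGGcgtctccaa
Col4a4 to Col4a3 gap: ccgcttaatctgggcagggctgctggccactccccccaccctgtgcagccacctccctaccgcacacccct
Between Col4a6 and Col4a5 on chromosome X lie 1308 bases, not printed. The RefSeq table held 37 windows for 34 of the 43 chains. In the 250 bases before each start, GGGCGG occurred on either strand in 22 of the 37 windows (59.5%) and in 32.7% of all 32851 windows. CCAAT occurred in 12 (32.4%, against 33.8%) and TATAAA in 4 (10.8%, against 12.4%). TGANTCA occurred in 1 (2.7%, against 6.75%). None of these motifs contains another, and a match describes letters only.

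Col4a1 (ENSMUSG00000031502.11, mm10 chromosome 8, 11198423 to 11312826) had 988, 2203 and 2004 CPM in WT and 170.3, 352 and 473 CPM in PLD. It fell by 2.38 ± 0.43 on the log2 scale (edgeR's adjusted p = 0.00273). Its partner Col4a2 (chromosome 8, 11312805 to 11449287) had 588, 1194 and 1056 CPM in WT and 149, 242 and 302 CPM in PLD, a log2 fold change of -2.03 ± 0.33 (edgeR's adjusted p = 0.00179). WT replicate 1 was the lowest WT library for both genes and still stood above every PLD library. In the same libraries the marker medians were -3.34 for endothelial, -3.70 for smooth muscle and -1.61 for fibroblast and stellate cells. The source of Col4a1 and Col4a2 was not tested.

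Col4a3 (ENSMUSG00000079465.8, mm10 chromosome 1, 82586921 to 82722059), known from specialised epithelial basement membranes such as that of the kidney glomerulus, rose in PLD. It had 26.02, 21.3 and 23.7 CPM in WT and 44.1, 37.3 and 36.7 CPM in PLD, with every PLD library above every WT library. Its log2 fold change was 0.73 ± 0.12 (edgeR's adjusted p = 0.00209), and it stayed past the threshold without any single library. Col4a4 (chromosome 1, 82448423 to 82586849) had 29.5, 29.3 and 32.99 CPM in WT and 36.6, 40.7 and 42.3 CPM in PLD. The groups did not overlap, and the log2 fold change was 0.38 ± 0.11 (edgeR's adjusted p = 0.0186). That call was lost without WT replicate 1 (adjusted p = 0.0586), WT replicate 2 (0.0621), PLD replicate 2 (0.0524) or PLD replicate 3 (0.0542), so without each of these the number of collagen chains that rose was 1. Both rises were smaller than the median of the cholangiocyte markers (1.49). Exons of the noncoding gene C430014B12Rik overlap 5.65% of the Col4a3 model on the other strand, and that gene had 1 to 8 reads a library.

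Col4a5 (chromosome X, 141475385 to 141689234), the partner of both Col4a3 and Col4a4 in one network and of Col4a6 in another, had 124, 122 and 123 CPM in WT and 37.5, 75.3 and 95.5 CPM in PLD. The WT libraries were nearly equal and the PLD libraries spread widely below them (log2 fold change -0.83 ± 0.29, edgeR's adjusted p = 0.0435). This call was lost after the length correction (adjusted p = 0.0754) and without WT replicate 1 (0.0805), 2 (0.0887) or 3 (0.1) or PLD replicate 2 (0.092), and the fold change was -0.52 without PLD replicate 1. Col4a6 (chromosome X, 141165403 to 141474076), found in the basement membranes of smooth muscle and some epithelia, had 47.4, 33.3 and 37.4 CPM in WT and 6.20, 13.5 and 16.03 CPM in PLD. It fell clearly in each PLD library, by 1.72 ± 0.32 on the log2 scale (edgeR's adjusted p = 0.00313). Smooth muscle markers had a median of -3.70 and cholangiocyte markers one of 1.49. The source of Col4a6 was not tested.

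**Figure D3:**
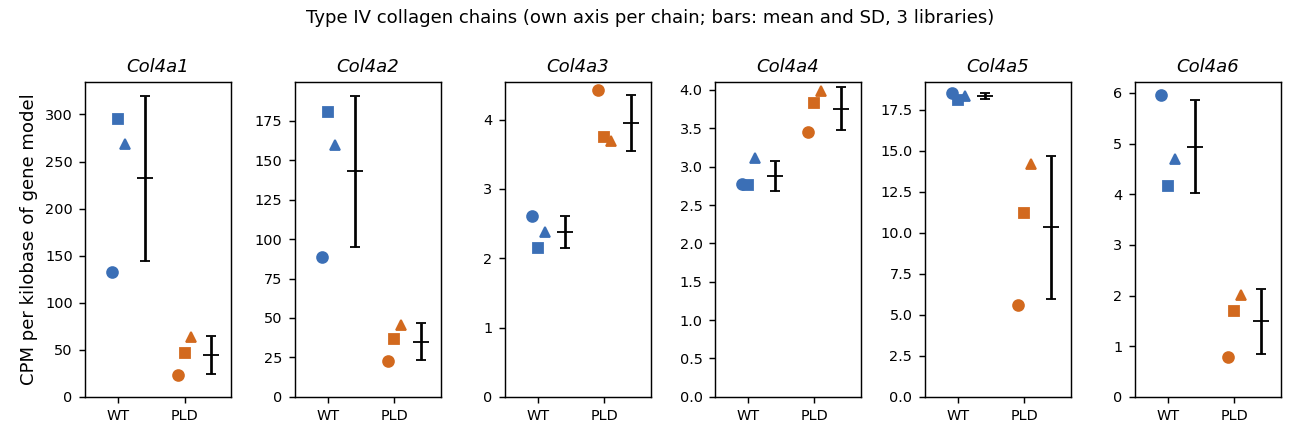
Level of each type IV chain in CPM per kilobase of its gene model, with an axis of its own for each chain that starts at 0 (circles, squares and triangles are replicates 1, 2 and 3; black bars are the mean and SD of 3 libraries). Col4a3 and Col4a4 lie higher in PLD and the other 4 chains lower.

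Per kilobase of gene model, Col4a1 made up 52.7% to 58.8% in WT and 38.3% to 47.6% in PLD of the type IV total. A model joins all annotated exons and can be longer than the expressed transcript, so shares of different chains compare only roughly. The share of Col4a2 was 34.95% to 35.9% in WT and 34.4% to 37.9% in PLD. Col4a3 made up 0.426% to 1.04% in WT and 2.77% to 7.42% in PLD and Col4a4 0.549% to 1.11% in WT and 3.00% to 5.78% in PLD. The share of Col4a5 was 3.61% to 7.38% in WT and 9.36% to 10.8% in PLD. Col4a3 and Col4a4 were therefore a larger part of type IV RNA in every PLD library than in any WT library, while Col4a1 and Col4a2 remained the most abundant chains in all 6.

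The multiplexins, which carry sugar chains and lie at the border of basement membrane and stroma, both fell. Col15a1 (chromosome 4, 47208161 to 47313167), known from membranes around vessels and muscle, had 129.7, 220.3 and 185 CPM in WT and 7.92, 24.5 and 29.4 CPM in PLD. Its log2 fold change was -3.11 ± 0.45 (edgeR's adjusted p = 0.00102). Marker medians were -3.34 for endothelial, -3.70 for smooth muscle and -3.27 for Schwann cells, and the source of Col15a1 was not tested. Col18a1 (chromosome 10, 77052178 to 77166548), the source of the fragment endostatin, had 332, 310.3 and 332 CPM in WT and 87.5, 163 and 157 CPM in PLD. It fell by 1.26 ± 0.22 on the log2 scale (edgeR's adjusted p = 0.00261), with even values in WT. In all, 6 of the 8 basement membrane chains fell and 2 rose, with a median of -1.49. Of all genes tested 28.4% fell and 27% rose, and the latter share is close to 2 of 8.

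Of the chains of other types 13 of 16 tested fell (28.4% of all genes) and 0 rose (27% of all genes), with a median of -1.86. The number that rose was also 0 at an unadjusted p under 0.05 in edgeR and, after adjustment, in DESeq2 and limma-voom. Type VI collagen forms beaded filaments around cells from Col6a1, Col6a2 and either Col6a3 or a relative. Col6a1 had 544, 888 and 718 CPM in WT and 84.99, 209 and 249 CPM in PLD (log2 fold change -1.98 ± 0.38, edgeR's adjusted p = 0.00375). Col6a2 had 482, 819 and 671 CPM in WT and 38.3, 152 and 190.5 CPM in PLD (log2 fold change -2.37 ± 0.53, edgeR's adjusted p = 0.00708). The values of Col6a3 were 467, 1119 and 902 CPM in WT and 39.6, 163 and 246 CPM in PLD (log2 fold change -2.47 ± 0.62, edgeR's adjusted p = 0.0115). These core chains fell together and were each far lower in PLD replicate 1 than in the other PLD libraries.

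The relatives of Col6a3 lie side by side on chromosome 9. Col6a5 had 159.9, 267 and 209 CPM in WT and 32.6, 54.96 and 103 CPM in PLD and fell (log2 fold change -1.74 ± 0.40, edgeR's adjusted p = 0.00754). Col6a6 had 107, 94.1 and 86.7 CPM in WT and 6.54, 33.5 and 57.1 CPM in PLD, without overlap of the groups, and did not pass (log2 fold change -1.56 ± 0.60, adjusted p = 0.0577). It passed without PLD replicate 1, at a smaller fold change of -1.08 (adjusted p = 0.006), without PLD replicate 3 (-2.24, adjusted p = 0.023), in limma-voom (adjusted p = 0.0251) and with no filter on low counts (0.0161). Col6a4 had 26 reads over the WT libraries and 1 over PLD and did not pass the filter on low counts.

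The fibril-associated (FACIT) collagens sit on the surface of fibrils. Col14a1 (chromosome 15, 55307750 to 55520803) was the most abundant of them in WT, with 929, 1285 and 1223 CPM in WT and 68.7, 124 and 187 CPM in PLD. Its log2 fold change was -3.18 ± 0.36 (edgeR's adjusted p = 3.43e-04). The related Col12a1 (chromosome 9, 79598991 to 79718831) had 53.3, 97.2 and 59.4 CPM in WT and 60.6, 74.3 and 118 CPM in PLD, so that the groups overlapped, and its log2 fold change of 0.27 ± 0.30 did not pass (edgeR's adjusted p = 0.471). Without PLD replicate 3 the sign turned (-0.04). Col16a1 had 102, 141 and 122 CPM in WT and 37.5, 64.3 and 78.5 CPM in PLD (log2 fold change -1.02 ± 0.26, edgeR's adjusted p = 0.0117). At low levels Col9a3, a cartilage chain, measured 3.86 ± 0.750 in WT against 1.35 ± 0.225 CPM in PLD (mean and SD of 3 libraries; log2 fold change -1.51 ± 0.27), and Col20a1 8.03 ± 2.01 against 3.67 ± 0.981 CPM (-1.13 ± 0.28). Both passed (edgeR's adjusted p = 0.00276 and 0.0107). Exons of Tcfl5, which had 1 to 4 reads a library, overlap 6.07% of the Col9a3 model, and those of BX649560.1, with 74 to 144 reads, overlap 1.54% of Col20a1.

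Col8a1 and Col8a2, the chains of a short network collagen known from vessel walls, both fell. Col8a1 had 90.9, 98.4 and 83.5 CPM in WT and 6.27, 11.3 and 13.5 CPM in PLD (log2 fold change -3.13 ± 0.26, edgeR's adjusted p = 1.01e-04). Col8a2 had 17.1, 12.97 and 16.3 CPM in WT and 4.61, 7.56 and 7.39 CPM in PLD (log2 fold change -1.24 ± 0.22, edgeR's adjusted p = 0.00273). Neither chain's groups overlapped.

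Col7a1, which forms the anchoring fibrils under stratified epithelia, was low, with 11.6, 10.1 and 8.22 CPM in WT and 5.37, 8.78 and 11.9 CPM in PLD. The groups overlapped and the log2 fold change of -0.19 ± 0.29 did not pass (edgeR's adjusted p = 0.594). It was 0.06 without PLD replicate 1 and 0.04 after the length correction. Of the 3 chains here that span the cell membrane, 2 were tested and both fell, and Col25a1 did not pass the filter on low counts. Col13a1 had 34.8, 41.04 and 42.2 CPM in WT and 1.93, 3.48 and 3.12 CPM in PLD, with a fall of 3.78 ± 0.21 on the log2 scale and the smallest p of all the chains (edgeR's adjusted p = 3.87e-05). Col23a1 had 21.9, 24.00 and 22.1 CPM in WT and 7.65, 4.09 and 4.68 CPM in PLD (log2 fold change -2.06 ± 0.23, edgeR's adjusted p = 3.67e-04). Unlike most chains it was highest in PLD replicate 1 among the PLD libraries. Col28a1, known from Schwann cells of peripheral nerve, had 12.9, 7.08 and 11.99 CPM in WT and 1.10, 1.83 and 1.74 CPM in PLD. Its log2 fold change was -2.76 ± 0.32 (edgeR's adjusted p = 3.73e-04), beside marker medians of -3.27 for Schwann cells and -3.34 for endothelial cells. The source of Col28a1 was not tested.

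The 10 chains left out by the filter on low counts had at most 21 reads in any library. Col9a1 had 0 reads in all 6, which allows up to 0.177 to 0.207 CPM per library when 3 counts are taken as the limit of a count of 0 (counting error only). Over the WT and PLD libraries Col24a1 had 36 and 5 reads, Col19a1 31 and 2, Col25a1 29 and 2, and Col22a1 10 and 3. The cartilage chain Col2a1 had 14 and 9, Col9a2 13 in each group, Col10a1 3 in each, and Col26a1 2 and 0. With no filter edgeR tested 9 of the 10 and called 4 lower and 0 higher, and DESeq2, with adjusted p-values for 7, also called 4 lower and 0 higher. Without the filter the log2 fold change of Col24a1 was -2.68 (adjusted p = 0.0152 in edgeR and 0.0219 in DESeq2). That of Col19a1 was -3.64 (adjusted p = 0.00366 in edgeR and 0.00975 in DESeq2), that of Col25a1 -3.55 (adjusted p = 0.00571 in edgeR and 0.013 in DESeq2) and that of Col6a4 -4.18 (adjusted p = 0.0024 in edgeR and 0.00606 in DESeq2). In PLD these 4 chains had 1 to 5 reads over the 3 libraries, so the fold changes rest on few reads.

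Ratios between chains of a molecule or family, in reads per kilobase, do not depend on how libraries are scaled. Their size, but not their log2 difference between groups, depends on the gene model lengths (6563 bases for Col1a1 and 12426 for Col1a2). The ratios were compared for 14 pairs by an exact two-sided permutation test, which with 3 against 3 libraries cannot go below p = 0.1. After adjustment over the 14 pairs the smallest p was 0.14, so no ratio passed. In 10 pairs the groups did not overlap, 6 with PLD above and 4 with PLD below. For the levels of single genes the shares were 33% above and 33.2% below over all genes tested. Levels are a different measure, and no such share was computed for ratios of other gene pairs. Several chains stand in more than 1 pair, so the pairs are not separate results. Col1a1 to Col1a2, the pair of type I collagen, was 1.68, 1.90 and 1.93 in WT and 1.62, 2.10 and 1.88 in PLD, with overlapping groups. The log2 difference was 0.016 (exact permutation p = 1). Col3a1 to Col1a1 also overlapped, at 1.03, 1.37 and 1.20 in WT and 0.771, 1.05 and 1.18 in PLD.

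Several ratios in type IV lay apart between the groups. Col4a5 to Col4a6 was 3.11, 4.35 and 3.92 in WT and 7.17, 6.60 and 7.07 in PLD, a log2 difference of 0.89 (exact permutation p = 0.1). Col4a3 to Col4a1 was 0.0197, 0.00725 and 0.00884 in WT and 0.194, 0.0795 and 0.0582 in PLD, a log2 difference of 3.16. Within the Col4a1 and Col4a2 pair the ratio was lower in each PLD library (1.49, 1.64 and 1.68 in WT and 1.01, 1.29 and 1.39 in PLD). For Col4a3 to Col4a4 the groups overlapped (0.939, 0.776 and 0.764 in WT and 1.28, 0.977 and 0.926 in PLD, exact permutation p = 0.2). The widest shift of the 14 was Col12a1 to Col14a1, at 0.0264, 0.0349 and 0.0224 in WT and 0.406, 0.276 and 0.290 in PLD, a log2 difference of 3.54. Col18a1 to Col15a1 ranged from 1.27 to 2.32 in WT and from 4.82 to 9.99 in PLD. Col8a1 to Col8a2 was 3.04, 4.35 and 2.93 in WT and 0.778, 0.855 and 1.05 in PLD, and Col5a3 to Col5a1 was 0.265, 0.278 and 0.213 in WT and 0.0660, 0.131 and 0.136 in PLD. Col6a1 to Col6a2 was 2.14, 2.06 and 2.04 in WT and 4.22, 2.61 and 2.49 in PLD, highest in PLD replicate 1.

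**Figure D4:**
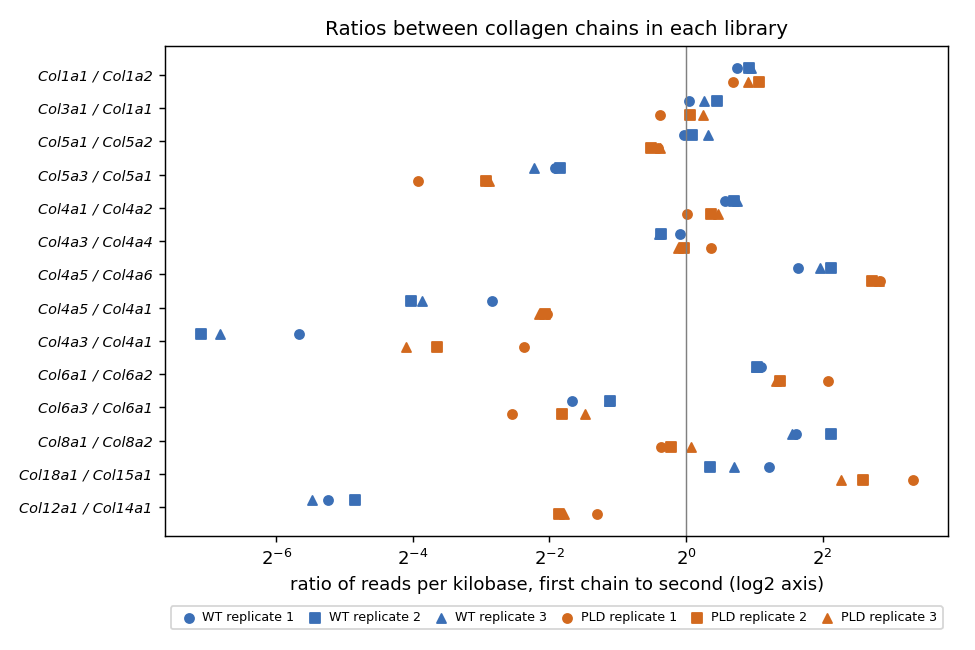
Ratio of reads per kilobase between collagen chains (log2 axis) for 14 pairs, 1 symbol per library; blue is WT and orange PLD, and circles, squares and triangles are replicates 1, 2 and 3. The groups overlap for Col1a1/Col1a2, Col3a1/Col1a1, Col4a3/Col4a4 and Col6a3/Col6a1 and lie apart for the other 10 pairs.

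By level per kilobase within each library, Col3a1 ranked first of the 43 chains in every WT library, with 164, 402 and 312 CPM per kilobase. Ranks within a library also depend on the lengths of the gene models. Col1a1 (159, 292 and 261) was above Col4a1 (132, 295 and 268) in WT replicate 1 and below it in the other WT libraries. In PLD the order differed between libraries. Col1a1 ranked first and Col3a1 was in place 5 in PLD replicate 1, while Col3a1 ranked first in PLD replicates 2 and 3. Col14a1 held places 3 to 5 in WT and 7 to 9 in PLD, and Col15a1 place 13 in WT and 17 to 21 in PLD. Col12a1 held places 22 to 25 in WT and 15 to 16 in PLD. Col4a3 held places 27 to 28 in WT and 14 to 20 in PLD, and Col4a4 place 26 in WT and 17 to 19 in PLD.

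The machinery that modifies, exports, crosslinks and binds collagen was described with a list of 65 genes, of which 60 were tested, 42 fell and 5 rose (median -1.37). Of 19 genes for modification and folding of the chains, 10 fell and 2 rose. P4ha1, a prolyl hydroxylase subunit, measured 166 ± 28.9 in WT against 52.3 ± 10.8 CPM in PLD (log2 fold change -1.67 ± 0.19, edgeR's adjusted p = 3.48e-04). The prolyl 3-hydroxylase gene P3h2 (-1.99 ± 0.24) and the lysyl hydroxylase genes Plod2 (-1.72 ± 0.25) and Plod1 (-1.37 ± 0.21) fell too. P4hb, the disulfide isomerase that is also the other prolyl hydroxylase subunit, rose (0.53 ± 0.12), as did Tmem38b, an ion channel of the endoplasmic reticulum (0.45 ± 0.09); these and Serpinh1 were picked after their values were seen. Serpinh1, the collagen chaperone HSP47, had 402, 852 and 854 CPM in WT and 83.1, 299.6 and 400.1 CPM in PLD and did not pass (log2 fold change -1.43 ± 0.54, edgeR's adjusted p = 0.055).

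Of 12 tested genes for export and for removal of the propeptides, 9 fell and 1 rose. Adamts2 (-1.67 ± 0.32) and Adamts14 (-2.58 ± 0.41), proteases that cut off the amino-terminal propeptide, and the protease enhancer Pcolce2 (-1.65 ± 0.17) fell. Mia2, an export factor of the endoplasmic reticulum, rose and measured 159 ± 10.2 in WT against 284 ± 48.4 CPM in PLD (log2 fold change 0.83 ± 0.14, edgeR's adjusted p = 0.00196). Of the 7 crosslinking genes 6 fell, among them the lysyl oxidase gene Lox (101 ± 21.3 against 24.2 ± 2.42 CPM, log2 fold change -2.07 ± 0.17, edgeR's adjusted p = 9.63e-05), Loxl4 (-2.36 ± 0.35) and Loxl3 (-1.77 ± 0.31). Pxdn, the peroxidase that links type IV networks, fell as well (-2.16 ± 0.37), beside the fall of Col4a1 and Col4a2.

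Among 13 tested genes for proteins that bind fibrils, 11 fell, and those with the smallest p were tenascin X (Tnxb, -2.79 ± 0.18), Thbs2 (-1.67 ± 0.12), Ogn (-2.92 ± 0.22) and Fmod (-2.24 ± 0.21). Fn1, which encodes fibronectin, rose (0.55 ± 0.20, edgeR's adjusted p = 0.046). Dcn, Lum, Dpt and Lox of these lists also stand in the fibroblast marker list. Of 9 tested collagen receptor genes 6 fell and 1 rose. Itga2, the collagen-binding integrin chain of epithelia, rose and measured 15.9 ± 0.958 in WT against 60.4 ± 14.5 CPM in PLD (log2 fold change 1.93 ± 0.18, edgeR's adjusted p = 1.71e-04). The receptors known from mesenchymal cells, Itga11 (-1.61 ± 0.20) and Ddr2 (-2.03 ± 0.26), fell, as did Itga1 (-1.87 ± 0.25). The epithelial receptor gene Ddr1 did not pass (log2 fold change 0.38 ± 0.18, edgeR's adjusted p = 0.117). All these lists were read beside the 28.4% of all genes that fell and the 27% that rose.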

How the data were processed

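Reads of polyadenylated RNA were counted per gene in 6 libraries, 3 WT and 3 PLD. Per the file headers, the authors obtained unnormalised counts with featureCounts 1.6.0, using GENCODE vM25 (mm10). No strand, pairing, multi-mapping or overlap option was set, so reads of overlapping genes on opposite strands cannot be told apart and reads shared by genes are left out. STAR 2.7.4a, SAMtools 1.12 and DESeq2 1.26.0 are named in the submitters' processing notes, without settings. Symbols came from GENCODE vM21 by gene ID (55141 of 55401 matched). edgeR 4.0.16 in R 4.3.3 tested PLD against WT on 15334 genes kept by filterByExpr, with TMM factors of 0.922 to 1.04, a quasi-likelihood F test and Benjamini-Hochberg adjustment over all of them at 0.05. The standard error (SE) is the log2 fold change divided by the square root of F. Levels per kilobase divide TMM-normalised CPM by the file's gene length. Alternatives were DESeq2 1.42.0, limma-voom (limma 3.58.1), RLE and upper-quartile factors, 2 other filters, a replicate block, a length correction, a minimum log2 fold change of 1 and leaving out each library. The test was checked on simulated data, where the share of false calls was above the threshold, which bears on calls close to it. No replicate pair agreed within sampling noise (chi-square per degree of freedom 9.72 to 63.9). Every chain is named. From each processing list the text names the 4 genes of lowest p whose mean log2 CPM is at least 3, and others were chosen after their values were seen. Markers are given as list summaries. The members, lists and pairs were chosen with earlier results of these data known.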

Additional observations from a re-analysis of the deposited data

How the results depend on the processing

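All 33 tested chains kept their direction and their side of the threshold with RLE or upper-quartile factors and with a filter of 1 CPM in 3 libraries. With a minimum log2 fold change of 1, the chains called lower numbered 12 in all, 3 fibrillar, 3 basement membrane and 6 other, the chains called higher 0 in all and 0 in the basement membrane group, and the processing genes 22 lower and 1 higher. Without single libraries, 23 to 30 chains were called lower and 1 to 2 higher. The fibrillar chains called lower were 5 to 9, the basement membrane chains called higher 1 to 2. The PLD minus WT difference in the log2 ratio of Col1a1 to Col1a2 ran from -0.072 to 0.11. The sign of this difference turned without WT replicate 1 (-0.049) and without PLD replicate 2 (-0.072). The log2 fold change of Col12a1 ran from -0.041, without PLD replicate 3, to 0.58. That of Col7a1 ran from -0.48 to 0.062, without PLD replicate 1, and was 0.043 after the length correction. These chains and this ratio had not passed, and the cause was not tested. The labels tie same-numbered libraries by a number only. Correlations of their deviations were 0.156, 0.036 and 0.061, and the first, for replicate 1, was the highest of all combinations. These few values cannot decide whether libraries were paired. WT replicate 2 correlated best with PLD replicate 3 and WT replicate 3 with PLD replicate 2. With the replicate block 29 chains were called lower and 2 higher, Col3a1 (-2.08, adjusted p = 0.00617) and Col6a6 (-1.90, adjusted p = 0.0409) being added, and it lost 0 chains. With no filter on low counts 33 of 42 chains were called lower, and in DESeq2 30 of 40, in each case with 4 of the 10 chains that the filter left out. Few reads limit those 10 chains, and the distance of PLD replicate 1 from the other PLD libraries limits the precision for fibrillar and type VI chains.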
